A study of Mus musculus with 36 samples.

Results

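Blood transcripts of sickle cell mice that received a scrambled control oligonucleotide were compared between week 4 and week 2. The comparison used 12 of the 36 libraries of the series, chosen by their titles: 6 of week 4 and 6 of week 2, with 3 libraries at 2 mg/kg and 3 at 3 mg/kg in each week. All animals were Townes mice, a humanised strain that carries human globin genes in place of the adult mouse ones. The labels give doses of 2 and 3 mg/kg of the scrambled control or of MIR29B, delivered with a mini-osmotic pump, and blood taken at weeks 0, 2 and 4. The series was designed to follow intermittent MIR29B dosing, the induction of fetal hemoglobin and the effect on gene expression. The scrambled libraries of week 0 (6) and the MIR29B libraries of weeks 2 and 4 (12) are used below only for reference. The labels do not give ages, do not say whether 1 mouse was bled at each week, and do not tell whether week 0 preceded dosing. Week therefore stands for time after the start of the study and for the age of the mice, which cannot be told apart here. The labels do not show whether libraries of a group came from separate mice, and p-values then measure only the spread between these libraries.

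Circulating red cells of a mouse with sickle cell disease include many reticulocytes, young cells that have lost the nucleus but still hold RNA for heme synthesis, membrane proteins and the removal of mitochondria. Blood RNA also carries transcripts of neutrophils, monocytes, lymphocytes, natural killer (NK) cells and platelets. Sickle cell disease is known for chronic hemolysis, inflammation and raised neutrophil counts. Globin RNA had been depleted before library preparation. In a bulk library, fewer cells of a type and less RNA per cell cannot be told apart.

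MIR29B stands for a microRNA of the miR-29 family, known to repress DNA methyltransferase transcripts, and a scrambled oligonucleotide is its control. The mature mouse miR-29b-3p is shown because it is the sequence the control stands against, with the seed (bases 2 to 8) in capitals. It is the RefSeq sequence on GRCm38.p6, made from chr1:195037091-195037113 on the plus strand and from chr6:31063025-31063047 on the minus strand. Whether the MIR29B given to the mice had exactly these bases is not stated in the sources used here, and the scrambled sequence is not analysed here.
miR-29b-3p: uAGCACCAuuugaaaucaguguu

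The label names the cells as erythrocytes, and red cell transcripts were present in every one of the 12 libraries. Alas2, which starts heme synthesis in the red cell lineage, stood at 60000 to 139000 CPM (counts scaled to the library total, with TMM factors). Slc4a1, the band 3 anion exchanger of the red cell membrane, ranged from 859 to 10200 CPM. White cell and platelet transcripts were counted as well, among them S100a9 of neutrophils and Cd79a of B cells. The libraries held 6.82 to 22.51 M counts over 1 transcript per gene. Total counts, genes with at least 10 counts and the share of ribosomal RNA were not found to differ between the weeks by an exact two-sided permutation test within doses (p = 0.405, 0.86 and 0.65, and 0.81, 0.86 and 0.86 after Benjamini-Hochberg adjustment over 4 measures). Libraries of the same group differed by far more than counting noise, with a chi-square per gene of 40.2 or more in each of 12 pairs, so all were counted separately. Week 2 libraries of 2 mg/kg replicate 3 and 3 mg/kg replicate 1 stood apart. Their median correlation with the other 11 libraries was 0.82 and 0.81, against 0.86 to 0.89 for the remaining 10. Values without these 2 libraries are given beside many of the results below.

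No gene passed edgeR's test between week 4 and week 2. With edgeR's quasi-likelihood test and dose as a covariate, 0 of 11045 genes had a Benjamini-Hochberg adjusted p under 0.05 (0%), and the smallest adjusted p was 0.911. At an unadjusted p under 0.05 there were 522 genes (4.73%), of which 201 were higher at week 4 (1.82%) and 321 lower (2.91%). DESeq2 called 1 gene, Hmgn5, and gave 776 genes an unadjusted p under 0.05. The levels of the 6 week 4 libraries and the 6 week 2 libraries did not overlap for 29 genes (0.263%), 11 of them higher (0.0996%) and 18 lower (0.163%) at week 4. The median log2 fold change over all genes tested was -0.07, and 44.3% of genes were above 0. The coefficient of variation between libraries left by the fit with dose and week was 0.585. Taken within each week, with dose as a term, it was 0.686 at week 2 and 0.445 at week 4. Differences within that spread were not detectable with 6 libraries against 6. The genes below are therefore described by their levels, and none of them passed edgeR's test across all genes.

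The gene with the smallest p was Hmgn5, which encodes a nucleosome-binding protein of the HMGN family (chromosome X, 109004537 to 109013380 on GRCm38). At week 2 it stood at 1.15 CPM in the lowest library, 2.20 in the median and 6.15 in the highest, and at week 4 at 6.34, 8.11 and 12.4. The weeks did not overlap, and all 3 libraries of 3 mg/kg at week 2 lay below all 3 of 2 mg/kg. The mean was 3.12 ± 2.23 CPM at week 2 and 8.46 ± 2.24 at week 4 (SD, n = 6 each), a log2 fold change of 1.62 ± 0.35 (SE; unadjusted p = 2.13e-04, edgeR adjusted p = 0.911). DESeq2 gave 1.61 ± 0.35 with an adjusted p of 0.0446. The week 0 mean was 8.45 ± 3.73 CPM (SD, n = 6), and the week 2 mean was the lowest of the 3 weeks. The MIR29B libraries showed 3.12 CPM at week 2 and 6.80 at week 4.

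Chst10, a sulfotransferase that makes the HNK-1 carbohydrate, had a similar course over the 3 weeks. Its lowest, median and highest levels were 3.36, 4.77 and 6.53 CPM at week 2 and 6.34, 10.2 and 13.1 CPM at week 4, so that 1 week 4 library fell within the week 2 range. The log2 fold change was 1.08 ± 0.30 and the week 0 mean 10.4 CPM. Usp25, a deubiquitinase, had means of 166, 63.3 and 141 CPM at weeks 0, 2 and 4 (1.20 ± 0.36). Cit, the citron kinase of cytokinesis, stood at means of 6.50, 1.31 and 6.56 CPM (2.29 ± 0.61), and Zfp62, a zinc finger gene, at 4.63, 1.82 and 5.28 CPM (1.58 ± 0.43). In these 5 genes the week 2 mean lay under those of both other weeks. They were chosen for a higher level at week 4, so a week 2 mean under that of week 4 was given. The choice also favours genes with low week 2 values, against week 0 as well. How often the week 2 mean was the lowest over all genes was not counted. Removing the 2 libraries that stood apart left log2 fold changes of 1.53, 1.06, 0.93, 2.19 and 1.19 for Hmgn5, Chst10, Usp25, Cit and Zfp62.

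Among the 10 genes with the smallest p and a higher level at week 4, 2 are known from lymphocytes, and they had another course. Ctla4, the inhibitory receptor of activated and regulatory T cells (chromosome 1, 60909025 to 60915832), had lowest, median and highest levels of 0.951, 2.73 and 5.69 CPM at week 2 and 4.15, 9.64 and 12 CPM at week 4. The weeks overlapped, and the week 0 range of 1.86 to 3.49 CPM lay wholly below the week 4 range. The log2 fold change was 1.49 ± 0.41, or 1.16 without the 2 libraries that stood apart. Rgs1, a G protein regulator of lymphocytes, had lowest, median and highest levels of 4.40, 8.46 and 20.8 CPM at week 2 and 12.6, 22.9 and 26.5 CPM at week 4. Its log2 fold change was 1.05 ± 0.29. The MIR29B libraries had means of 3.89 and 8.16 CPM for Ctla4 and 6.90 and 17.1 CPM for Rgs1 at weeks 2 and 4. Of 25 T cell markers tested, 13 were above 0, with a median log2 fold change of 0. Themis, of T cell receptor signalling, was at 1.11 ± 0.49, and at 0.66 without the 2 libraries that stood apart.

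The remaining higher genes had low counts. Dbf4, the regulatory subunit of the kinase that starts DNA replication, had means of 1.10 CPM at week 2 and 3.19 at week 4 (1.68 ± 0.46). Zfp51, a zinc finger gene, had 1.20 and 3.66 CPM (1.87 ± 0.57). Zfp990 had no counts in the 6 week 2 libraries and 148 counts in 3 of the 6 week 4 libraries. Those 3 libraries, 2 mg/kg replicate 3 and 3 mg/kg replicates 1 and 2, stood at 4.91, 2.27 and 1.26 CPM. At week 0, libraries of the same dose and number stood at 2.91, 1.61 and 1.44 CPM, and the others had 0. With 3 counts summed over the 6 libraries as the floor, the pooled counts were at least 56.3-fold higher at week 4. With 6 counts as the floor, since every deposited count was even, they were at least 28.2-fold higher. These folds cover counting error only, not the spread between libraries. How reads shared with similar zinc finger genes were assigned is not stated, and whether it matters for Zfp990 was not tested.

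Tnf, the inflammatory cytokine, had the smallest p among genes lower at week 4 (chromosome 17, 35199367 to 35202007). Its lowest, median and highest levels were 2.22, 4.41 and 9.87 CPM at week 2 and 0.505, 1.42 and 4.25 CPM at week 4. The weeks overlapped, and the 3 mg/kg mean was the higher in both weeks, at 7.94 against 3.02 CPM at week 2 and 2.94 against 0.841 CPM at week 4. The log2 fold change was -1.63 ± 0.39 (unadjusted p = 5.89e-04, edgeR adjusted p = 0.911), and it was -1.57 without the 2 libraries that stood apart. Over leaving out each library in turn it ranged from -1.80 to -1.43. The week 0 mean was 0.518 CPM and no week 0 library reached the lowest week 2 value. The MIR29B libraries had 5.55 CPM at week 2 and 2.62 at week 4.

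Tifab, known as a brake on TRAF6 signalling, had lowest, median and highest levels of 1.31, 2.95 and 7.96 CPM at week 2 and 0.343, 0.72 and 1.71 CPM at week 4. The log2 fold change was -2.01 ± 0.51, and it was -2.36 without the 2 libraries that stood apart. Unlike Tnf, it was not low at week 0, where the mean was 3.93 CPM. Twf2, an actin-binding twinfilin, ranged from 11.7 to 29.8 CPM at week 2 and from 7.46 to 10.5 CPM at week 4, with no overlap (-0.98 ± 0.29). Cuedc2, a ubiquitin-binding protein, ranged from 4.84 to 17.5 CPM at week 2 and from 2.27 to 4.15 CPM at week 4, also with no overlap. Its highest library was 1 of those that stood apart, and the log2 fold change was -1.27 ± 0.37 with all libraries and -0.75 without those 2.

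**Figure D1:**
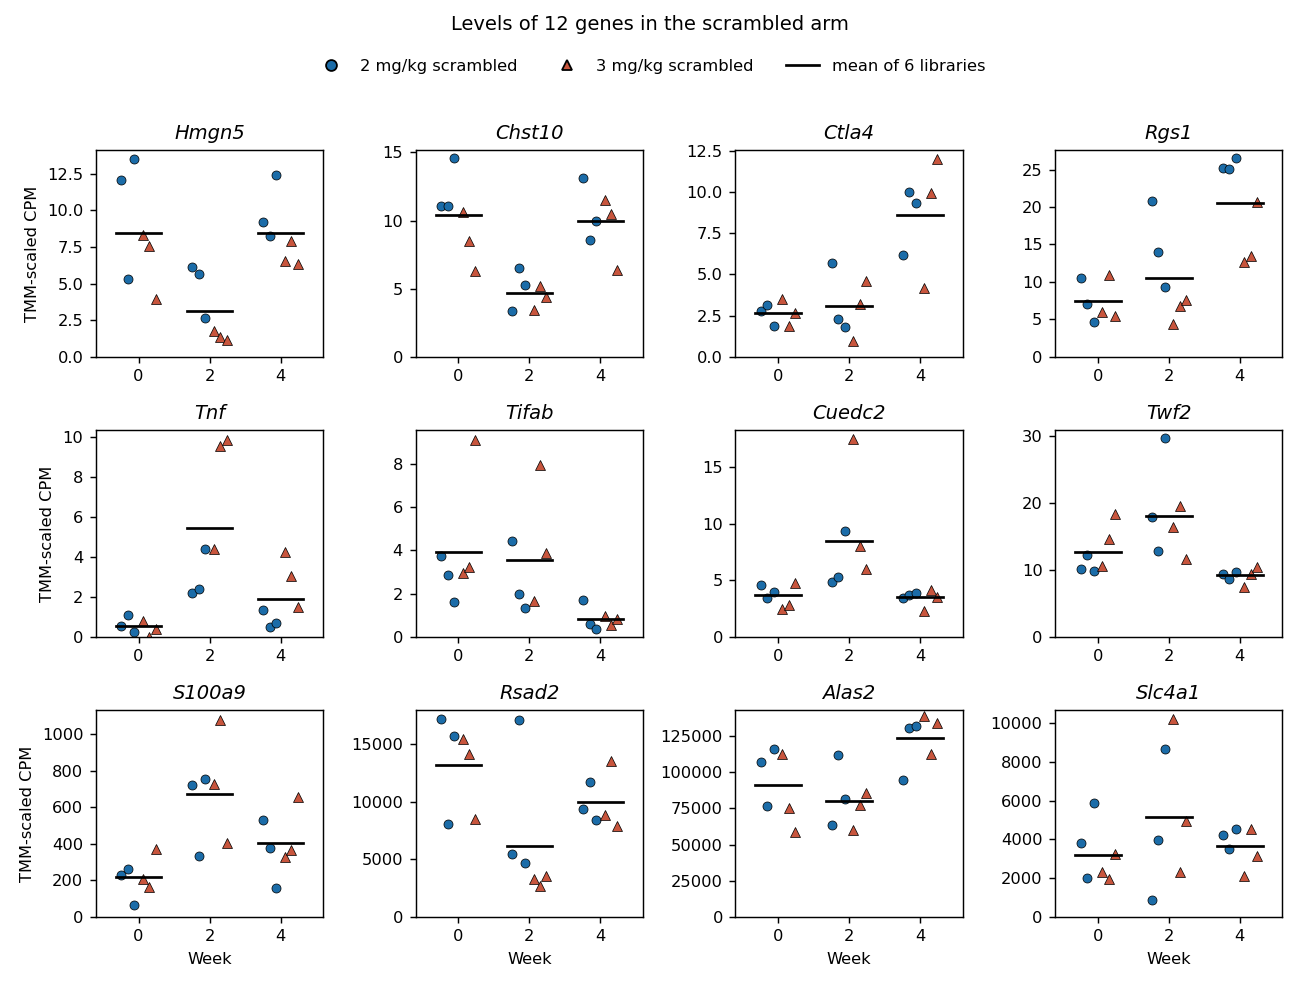
TMM-scaled CPM (vertical axes, from 0) of 12 genes in the scrambled libraries of weeks 0, 2 and 4 (horizontal axes). Each point is 1 library, circles are 2 mg/kg, triangles 3 mg/kg, and the bar is the mean of 6 libraries. The weeks 2 and 4 do not overlap for Hmgn5, Cuedc2 and Twf2, and Slc4a1 spans 859 to 10200 CPM at week 2 against 2090 to 4550 CPM at week 4.

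The other 6 genes of the lower set serve housekeeping functions or were scarce. Lamtor4, a subunit of the Ragulator complex on lysosomes, had means of 10.6 CPM at week 2 and 3.56 at week 4 (-1.66 ± 0.45), and -0.88 without the 2 libraries that stood apart. Mettl6, a tRNA methyltransferase, Ufsp2, a UFM1 protease, and Mrps18a of the mitochondrial ribosome did not overlap between the weeks, with log2 fold changes of -1.97 ± 0.51, -1.40 ± 0.39 and -1.65 ± 0.49. Bloc1s5, of the complex that builds lysosome-related organelles, had means of 1.21 and 0.274 CPM (-2.18 ± 0.62). Pard6b, a cell polarity gene, had 50 counts in 5 week 2 libraries and none at week 4, at least 14.6-fold lower by the floor of 3 counts and 7.3-fold by the floor of 6. Of the 20 genes with the smallest p, 6 did not overlap between the weeks (0.263% of all genes), and these 20 were chosen by p. Promoters of 16 of the 20 were in the RefSeq table (250 bases before to 50 after the start). None of the 16 held the letters searched for NF-kappa-B, AP-1, interferon response or GATA motifs on either strand. Those letters were in 0.411%, 7.81%, 3.44% and 11.2% of 32851 promoters. Each motif was searched as a fixed pattern of letters, and other forms of these sites were not searched. The NF-kappa-B letters were too rare for a match to be likely in any 16 promoters. The search therefore cannot tell whether these genes lack sites for these factors. The AP-1 letters were TGANTCA and the GATA letters AGATAA.

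Inflammatory and neutrophil genes divided in their order of levels. Of 24 blood genes given in every case, 0 passed the test. At an unadjusted p under 0.05 there were 3, Tnf, S100a8 and Acod1, against 4.73% of all genes. S100a8, which with S100a9 makes the calprotectin of neutrophils, had lowest, median and highest levels of 231, 557 and 842 CPM at week 2 and 107, 279 and 458 CPM at week 4 (-1.03 ± 0.44, and -0.51 without the 2 libraries that stood apart). S100a9 had 332, 727 and 1080 CPM at week 2 and 157, 371 and 658 CPM at week 4 (-0.74 ± 0.38). Both overlapped between the weeks, and both had week 0 means, 135 and 216 CPM, under those of week 2 and week 4. Acod1, which makes itaconate in activated macrophages, ran the other way, with 0.709, 6.47 and 13.3 CPM at week 2 and 2.57, 14.9 and 99.6 CPM at week 4 (1.51 ± 0.67). Its highest value was that of 1 week 4 library at 3 mg/kg, and the remaining 5 lay at 26.2 CPM or lower.

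The other inflammatory genes of the panel missed an unadjusted p of 0.05. Nfkbia, the NF-kappa-B inhibitor that NF-kappa-B itself induces, had means of 148 CPM at week 2 and 103 at week 4 (-0.60 ± 0.40). Il1b, a cytokine of monocytes and neutrophils, had 226 and 180 CPM (-0.42 ± 0.40). Trem1, an amplifying receptor of myeloid cells, had 45.9 and 51.4 CPM (0.16 ± 0.36), and Cd14, the lipopolysaccharide co-receptor, 169 and 200 CPM. Maff, a small stress-induced transcription factor, had 6.09 and 11.0 CPM (0.86 ± 0.42). All 5 had lower means at week 0, from 0.967 CPM for Maff to 87.0 for Il1b. Il1b was at -0.65 and Trem1 at -0.03 without the 2 libraries that stood apart.

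Of 27 neutrophil markers tested, 4 were above 0 and 23 below, with a median log2 fold change of -0.69 against -0.07 for all genes. Their median transcript length was 1324 bases. Among the 2195 genes with the shortest transcripts (109 to 1576 bases) the median was -0.33, with 27.1% above 0. Of those 2195, 150 were lower at an unadjusted p under 0.05. At that p, 4 of the 27 markers were lower, against 2.91% of all genes. They were S100a8, Wfdc21 and Stfa2l1, granulocyte genes with -1.45 ± 0.53 and -1.30 ± 0.51, and Ly6g, the surface marker of mouse neutrophils, with -1.45 ± 0.66. Ly6g ranged from 1.84 to 25.7 CPM at week 2 and from 0.343 to 7.80 CPM at week 4. The summed level of the list was 1060 to 4060 CPM at week 2 and 565 to 2340 CPM at week 4, and 239 to 1480 CPM at week 0, so the weeks overlapped. Without the 2 libraries that stood apart, the median of the list was -0.43, Ly6g was at -0.30 and Wfdc21 at -0.58. With the neutrophil marker level of each library as a term in the fit, 0 genes were called between the weeks and 291 had an unadjusted p under 0.05.

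The wider inflammatory lists had medians near 0, and without the 2 libraries that stood apart the monocyte list was at -0.26 and the nucleic acid sensors and Toll-like receptor signalling list at -0.35. Cytokines, chemokines and receptors had 19 of 36 above 0 with a median of 0.03, against 44.3% of all genes above 0. Cd40 and Cxcl10 joined Tnf at an unadjusted p under 0.05 with -1.97 ± 0.71 and -1.75 ± 0.70. At that p, 3 of the 36 were lower and 1 higher, against 2.91% and 1.82% of all genes. NF-kappa-B subunits and feedback genes had 12 of 26 above 0, immediate early genes 14 of 30, and monocyte and macrophage markers 12 of 25. Nucleic acid sensors and Toll-like receptor genes had 16 of 33, and eosinophil and basophil markers 6 of 12. In the NF-kappa-B, immediate early and monocyte lists the sign of the median changed with the scaling. ER stress and unfolded protein genes had 7 of 28 above 0, with a median of -0.24.

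NK cell and cytotoxic markers had the highest median of the lists, 0.81, with 19 of 21 above 0. Gzmb, the cytotoxic granule protease, had lowest, median and highest levels of 0.332, 2.43 and 7.09 CPM at week 2 and 2.89, 4.95 and 7.17 CPM at week 4 (1.17 ± 0.52). Il2rb, the shared receptor chain for interleukins that keep NK cells alive, had 2.95, 4.19 and 10.3 CPM at week 2 and 6.57, 10.9 and 16.2 CPM at week 4 (1.0 ± 0.37). These were the 2 of 21 with an unadjusted p under 0.05, where 1.82% of all genes were higher, and both overlapped between the weeks. Il2rb was lowest in the 2 libraries that stood apart, at 2.95 and 3.21 CPM, and Gzmb stood there at 2.78 and 0.951 CPM. Both log2 fold changes include those 2 libraries. The list summed to 36.5 to 148 CPM at week 2, 64.6 to 186 CPM at week 4 and 69.0 to 122 CPM at week 0, so the week 4 range covered that of week 0. Klrd1, the CD94 chain of NK receptors, had means of 2.95 and 3.24 CPM (0.45 ± 0.50), and it was -0.47 within the 2 mg/kg libraries. Klrd1 was at 0.18 without the 2 libraries that stood apart, and the median of the list was then 0.63, with 19 of 22 above 0. By dose, the median was 0.15 in the 2 mg/kg libraries alone (13 of 21 above 0) and 1.27 in the 3 mg/kg libraries alone (14 of 15). The summed level at 2 mg/kg was 61.3 to 148 CPM at week 2 and 64.6 to 186 CPM at week 4. At 3 mg/kg it was 36.5 to 73.0 CPM at week 2 and 85.4 to 118 CPM at week 4. The 3 mg/kg ranges did not overlap, but each holds only 3 libraries. How often 3 and 3 libraries separate over all genes was not counted. Gzmb had means of 4.37 and 5.04 CPM at 2 mg/kg and 1.12 and 5.21 CPM at 3 mg/kg, and Il2rb 5.14 and 10.7 CPM and 5.84 and 11.2 CPM.

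Interferon genes were mostly above 0 as well. Of 41 type I interferon stimulated genes, 34 were above 0, with a median of 0.36. Of 16 interferon-gamma GTPases 15 were, with a median of 0.55, against 44.3% of all genes above 0. Rsad2, the antiviral enzyme viperin, had lowest, median and highest levels of 2690, 4110 and 17100 CPM at week 2 and 7880, 9070 and 13500 CPM at week 4 (0.86 ± 0.43). In 5 of the 6 week 2 libraries it stood at 5410 CPM or lower, below the whole week 4 range, and in the sixth it was the highest of all 12. Its week 0 range was 8080 to 17200 CPM. Ifit2, an inhibitor of viral translation, had means of 1.39 and 2.41 CPM (0.87 ± 0.52). Rsad2 and Isg20 (1580 to 7220 CPM in the 12 libraries) stood far above Ifit2. Which cells their transcripts came from was not tested. Of the 41, Herc6 and Isg20 were higher and Ifi35 lower at an unadjusted p under 0.05, against 1.82% and 2.91% of all genes (1.05 ± 0.40, 0.78 ± 0.37 and -1.14 ± 0.54). Without the 2 libraries that stood apart they were at 0.75, 0.47 and 0.09, Rsad2 was at 0.68, and the medians were 0.32 for the type I interferon stimulated genes (27 of 41 above 0) and 0.34 for the interferon-gamma GTPases (13 of 16). By dose, the medians were 0.05 and 0.11 in the 2 mg/kg libraries alone, and 0.91 and 1.11 in the 3 mg/kg libraries alone. Rsad2 had means of 9050 and 9800 CPM at 2 mg/kg and 3190 and 10100 CPM at 3 mg/kg, and its difference between doses did not pass edgeR's test (1.51 ± 0.78, unadjusted p = 0.0705).

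B cell markers had 6 of 21 above 0, with a median of -0.32. That median was -0.02, -0.09 and -0.06 without week 2 2 mg/kg replicate 2, week 2 2 mg/kg replicate 3 and week 2 3 mg/kg replicate 3, and -0.06 without week 4 2 mg/kg replicate 1. Cd79a, a chain of the B cell receptor, had means of 63.9 and 41.7 CPM (-0.63, and -0.31 without the 2 libraries that stood apart). Cd3e, a chain of the T cell receptor, had 6.25 and 5.57 CPM (-0.20, and 0.23 without the 2). Dendritic cell and MHC class II genes had 4 of 17 above 0, with Siglech of plasmacytoid dendritic cells at -2.59 ± 1.13 from under 1 CPM. Platelet markers had 7 of 24 above 0. Pf4, the platelet chemokine, ranged from 22.7 to 544 CPM at week 2 and from 31.7 to 118 CPM at week 4. Its log2 fold change was -1.30 ± 0.63 with all libraries and 0.21 without the 2 that stood apart, 1 of which held the 544 CPM, and the median of the platelet list went from -0.31 to 0.36, with 22 above 0.

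Red cell genes had wide ranges at week 2 and narrower ones at week 4. Alas2 had lowest, median and highest levels of 60000, 79500 and 112000 CPM at week 2 and 94500, 131000 and 139000 CPM at week 4 (0.61 ± 0.32, unadjusted p = 0.0735, edgeR adjusted p = 0.911). Before TMM scaling, its share of the counts was 5.32 to 11.56% at week 2 and 9.24 to 13.62% at week 4. The TMM factors were 0.80 to 1.82 at week 2 and 0.82 to 0.98 at week 4, so part of the difference in CPM came from the scaling. Slc4a1 had 859, 4470 and 10200 CPM at week 2 and 2090, 3860 and 4550 CPM at week 4 (-0.53 ± 0.51). The 6 week 4 values of Slc4a1 lay inside the week 2 range, as they did for Gata1, the master regulator of red cell genes, at 6.32 to 53.6 CPM at week 2 and 17.8 to 30.4 CPM at week 4. For Klf1, the activator of adult beta globin, the week 4 range of 3.17 to 12.8 CPM also lay inside that of week 2, 1.31 to 25.8 CPM. Tfrc, the transferrin receptor that takes up iron, had means of 70.6 and 85.4 CPM, and Slc2a1, the GLUT1 glucose transporter, 18.3 and 23.4 CPM. Slc2a1 stood at a mean of 6.88 CPM at week 0. Mki67, a marker of dividing cells, had means of 34.2 and 61.0 CPM (0.85 ± 0.44). Slc4a1 was at 0.28, Gata1 at 0.19, Klf1 at 0.42 and Mki67 at 0.56 without the 2 libraries that stood apart.

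Genes for the removal of mitochondria and proteins in reticulocytes had 25 of 39 above 0, a median of 0.25, and 5 at an unadjusted p under 0.05, all higher. Over all genes, 44.3% were above 0 and 1.82% were higher at an unadjusted p under 0.05. Usp15, a deubiquitinase, ranged from 83.2 to 896 CPM at week 2 and from 641 to 1280 CPM at week 4 (1.36 ± 0.44). Wipi1, which acts in autophagosome formation, did not overlap, at 12.1 to 34.2 CPM against 37.2 to 50.9 CPM (0.87 ± 0.30). Tax1bp1, an autophagy receptor, Bnip3l, the mitophagy receptor of reticulocytes, and Wdr26, of a ubiquitin ligase, had 1.14 ± 0.44, 0.97 ± 0.38 and 0.75 ± 0.33. Without the 2 libraries that stood apart, Usp15, Wipi1, Tax1bp1, Bnip3l and Wdr26 were at 0.98, 0.75, 0.83, 0.68 and 0.67, and 35 of 39 genes of the reticulocyte mitophagy and ubiquitin genes were above 0, with a median of 0.40. The red cell membrane and skeleton genes had 21 of 35 above 0, with a median of 0.05 (0.24 without the 2).

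Heme synthesis genes had 6 of 18 above 0 (median -0.19) with all libraries and 14 above 0 (median 0.20) without the 2 that stood apart. Iron genes had 11 of 19 above 0, and erythroid transcription factors 11 of 27, with Lmo2 at 0.78 ± 0.34 and Foxo3 at 0.66 ± 0.29. Glycolysis and pentose phosphate genes had 7 of 29 above 0 and a median of -0.44. Of these, Pgd, Pgls, Gpi1 and Eno1 had an unadjusted p under 0.05 (-1.40 ± 0.52, -1.11 ± 0.48, -0.76 ± 0.33 and -0.67 ± 0.31). Over all genes, 2.91% were lower at that p. Pgd, Pgls and Gpi1 were -0.55, -0.03 and -0.47 without the 2 libraries, and the median of the list was -0.21. Heat shock chaperones had 18 of 22 above 0, with Hsp90aa1 at 1.20 ± 0.51 (0.90 without the 2), and cell cycle genes 22 of 34.

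Genes nearest to the aim of the series are those of DNA methylation and fetal globin control. None passed edgeR's test in the control arm, as none of all 11045 genes did. Dnmt3a, the DNA methyltransferase named in the series title, had lowest, median and highest levels of 0.426, 2.47 and 5.51 CPM at week 2 and 0.902, 1.92 and 4.25 CPM at week 4 (-0.25 ± 0.54). Its sign changed when 1 library was left out, with 0.18 as the highest value, and it was -0.40 without the 2 libraries that stood apart. The DNA methylation list had 9 of 17 above 0, and literature targets of miR-29 had 22 of 37 above 0, with 0 at an unadjusted p under 0.05. Over all genes, 44.3% were above 0 and 4.73% had an unadjusted p under 0.05. At that share few of 37 genes would be counted, so 0 does not show that these genes were stable. Bcl11a, a repressor of fetal globin, had means of 2.06 and 0.967 CPM (-1.04 ± 0.55), and -1.30 without the 2 libraries that stood apart. Fetal globin regulators had 16 of 39 above 0. Mouse globin genes had 7 of 9 above 0, with Hbb-bh2 at 1.38 ± 0.63 from levels near 1 CPM. The list summed to 2880 to 23000 CPM at week 2 and 5510 to 15700 CPM at week 4. These mice carry human globin genes, and globin RNA had been depleted. Whether depletion or reads of human globin RNA entered these counts was not tested.

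**Figure D2:**
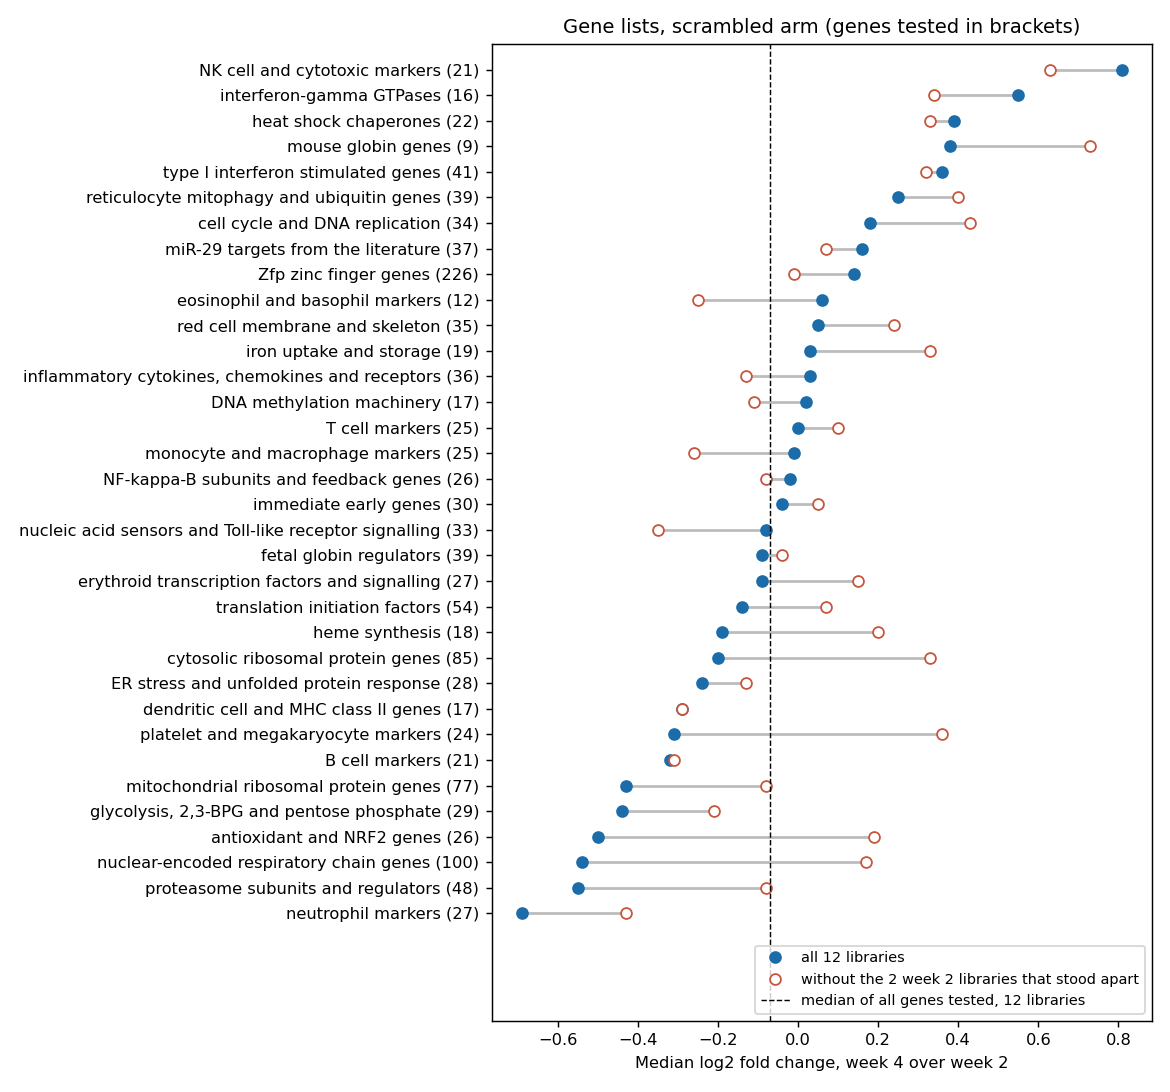
Median log2 fold change of week 4 over week 2 (horizontal axis) for each gene list with at least 5 genes tested (vertical axis, genes tested in brackets). Filled points use all 12 libraries, open points leave out the 2 week 2 libraries that stood apart, and the dashed line is the median of all genes, -0.07. Neutrophil markers stay low and NK markers high under both, while platelet, respiratory chain and cytosolic ribosomal protein genes cross 0.

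The medians of several housekeeping lists moved with the 2 libraries that stood apart. With all 12 libraries, 14 of 100 nuclear-encoded respiratory chain genes were above 0 (median -0.54), 5 of 48 proteasome genes (median -0.55), 10 of 77 mitochondrial ribosomal protein genes (median -0.43) and 21 of 85 cytosolic ribosomal protein genes (median -0.20). Without the 2 libraries the medians were 0.17, -0.08, -0.08 and 0.33. Antioxidant and NRF2 genes went from -0.50 to 0.19. Translation initiation factors had 23 of 54 above 0, Zfp zinc finger genes 132 of 226, and only 2 of 15 skin and stromal markers had enough counts to be tested. Psmb5, a proteasome subunit, ranged from 9.73 to 223 CPM at week 2 and from 6.23 to 18.1 CPM at week 4, and was -1.66 with all libraries and -0.23 without the 2.

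Fold changes over the whole table were ordered by transcript length. In 5 equal groups of genes from the shortest transcripts to the longest, the median log2 fold change was -0.33, -0.16, -0.07, 0.01 and 0.15, and the share above 0 went from 27.1% to 63.3%. Without the 2 libraries that stood apart the medians were 0.02, -0.05, -0.07, -0.08 and -0.01. A length index was taken per library, the median deviation of log2 CPM in the longest of 3 equal groups of transcripts minus that in the shortest. It was -1.44 and -0.76 in those 2 libraries, the 2 lowest of the 12, and -0.59 to 0.64 in the others. Its mean was -0.342 ± 0.715 at week 2 and 0.0133 ± 0.431 at week 4 (SD, n = 6 each; exact two-sided permutation test within doses, p = 0.355). With the index as a term, the 5 groups had medians of 0.02, -0.05, -0.04, -0.05 and 0.02, Tnf was -1.75 and Hmgn5 1.63. The index was taken by transcript length from these same counts. Flatter medians in that fit were therefore built in and are no separate check.

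**Figure D3:**
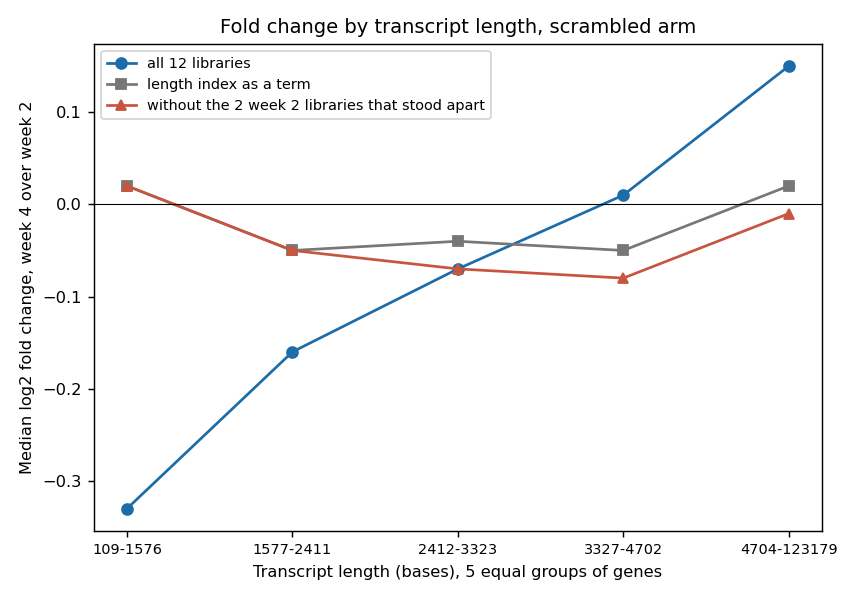
Median log2 fold change of week 4 over week 2 (vertical axis) in 5 equal groups of the genes tested by transcript length in bases (horizontal axis). Circles are all 12 libraries, squares the fit with the length index as a term, and triangles the fit without the 2 week 2 libraries that stood apart. The medians run from -0.33 to 0.15 with all libraries and stay between -0.08 and 0.02 in the other 2 fits. The length index was taken from the same libraries, so the flat course of the squares was built in.

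Week 2 libraries differed from one another more than week 4 libraries did. The standard deviation of log2 CPM within doses was larger at week 2 for 8349 of 11045 genes (75.6%), with medians of 0.94 at week 2 and 0.59 at week 4. Correlations between libraries of log2 CPM, taken pair by pair as a description, ran from 0.73 to 0.89 within week 2 (15 pairs) and from 0.87 to 0.91 within week 4 (15 pairs). Gata1 had an SD of 1.01 at week 2 and 0.24 at week 4, Slc4a1 1.42 and 0.42, and Pf4 1.87 and 0.62. Tnf had 0.60 and 0.72, and S100a9 0.69 and 0.75. In the 24 blood genes the SD was larger at week 2 in 18, and in the 35 membrane genes in 33. Without the 2 libraries that stood apart, the share was 55.2% and the week 2 median 0.66. Those 2 were picked for their low correlation with the others, so a smaller week 2 spread without them was built in. No week 4 libraries were left out of this comparison in the same way. Week 0 scrambled libraries had a median SD of 0.52. In the MIR29B arm the SD was larger at week 2 for 60.9% of these genes, with medians of 0.64 and 0.51.

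**Figure D4:**
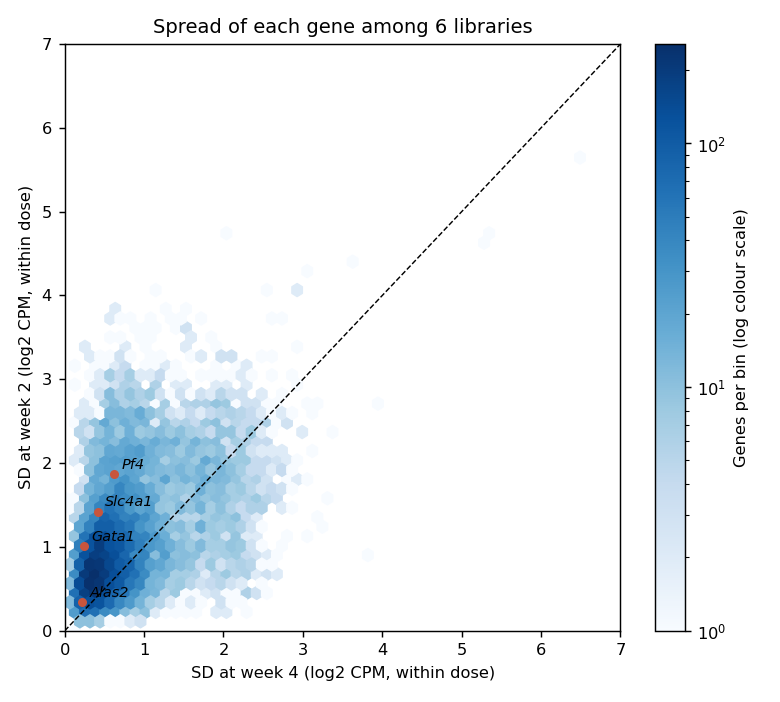
Standard deviation of log2 CPM within doses for each of 11045 genes among the 6 week 4 libraries (horizontal axis) and the 6 week 2 libraries (vertical axis), coloured by the number of genes per bin on a log scale. The dashed line marks equal spread, 75.6% of genes lie above it, and Pf4 (1.87 against 0.62), Slc4a1, Gata1 and Alas2 are marked.

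No gene passed edgeR's test of a difference between the doses in the change from week 2 to week 4, while alternatives called some. The dose by week term called 0 of 11045 genes (0%), and 560 had an unadjusted p under 0.05 (5.07%), of which 215 were higher at 3 mg/kg (1.95%) and 345 lower (3.12%), with 47.8% of genes above 0. DESeq2 called 12 genes, and edgeR with no filter on low counts called 11. The 3 smallest p were those of Galnt10, which starts O-linked glycosylation, Dkc1, the pseudouridine synthase dyskerin, and Smg5, of nonsense-mediated decay. Galnt10 had means of 14.3 CPM at week 2 and 42.5 at week 4 at 2 mg/kg, and of 45.5 and 16.1 CPM at 3 mg/kg (n = 3 each), a difference of -3.12 ± 0.62 on the log2 scale (edgeR adjusted p = 0.959). Dkc1 went the other way, with 14.7 and 13.5 CPM at 2 mg/kg and 2.55 and 19.7 CPM at 3 mg/kg (3.05 ± 0.72). Smg5 had 9.72 and 18.6 CPM at 2 mg/kg and 29.2 and 9.03 CPM at 3 mg/kg (-2.71 ± 0.68). DESeq2 called all 3.

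No gene passed edgeR's test of a difference between the arms either. The test over 24 libraries called 0 of 11579 genes (0%), and 303 had an unadjusted p under 0.05 (2.62%), of which 109 were higher (0.941%) and 194 lower (1.68%), with 38.4% of genes above 0. DESeq2 also called 0, and 390 genes had an unadjusted p under 0.05 there. The 3 smallest p were those of Foxo3, a transcription factor of red cell maturation, Cdpf1 and Cit. The log2 change of Foxo3 was 1.32 ± 0.33 higher in the scrambled arm (unadjusted p = 4.30e-04, edgeR adjusted p = 0.999). Cdpf1 was -2.31 ± 0.59 by the same difference. Cit went from 1.31 to 6.56 CPM in the scrambled arm and from 8.06 to 6.11 CPM in the MIR29B arm (2.69 ± 0.70). For Tnf the difference was -0.47 ± 0.56, and for Hmgn5 0.42 ± 0.50, so a difference between arms was not detectable for either at this spread.

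The sex of the mice, read from Xist and Y-linked transcripts, was mixed in both weeks. Week 2 held 3 female and 3 male libraries and week 4 held 4 and 2. At 3 mg/kg the libraries numbered 2 were male at week 2 and female at week 4, so this number did not stand for 1 mouse. With sex as a term, 0 genes were called between the weeks.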

How the data were processed

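Blood RNA of 36 libraries was sequenced, and the authors deposited 1 table of raw counts for 25856 RefSeq transcripts, per the file headers. Per the submitters' processing notes, HISAT2 2.0.5, featureCounts 1.5.0-p3 and GRCm38 were named, with no role given. Every count was even (0 odd values). How reads shared by isoforms, strand or mates were handled is not given in the sources used here.

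Accessions were matched to symbols with RefSeq (25645) or GENCODE (137), 74 had none, and the transcript with the highest total stood for each of 16812 genes. In R 4.3.3, edgeR 4.0.16 tested genes that passed filterByExpr (minimum count 10, total 15) after TMM scaling, with the quasi-likelihood F test, dose as a covariate and Benjamini-Hochberg adjustment over all genes (called under 0.05). The SE is the absolute log2 fold change over the square root of F. The differences between doses and between arms were tested as interactions. Alternatives used DESeq2 1.42.0, limma 3.58.1 voom, other scalings, filters, covariates, a replicate block and left-out libraries. Levels are TMM-scaled CPM. Floors and intervals cover counting error only.

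The genes named are the 10 smallest p in each direction with an established symbol, the 3 smallest p of the other comparisons, and 24 fixed blood genes. Members of gene lists at an unadjusted p under 0.05, and Psmb5, were named after their values were seen. Comparison, gene lists and named genes were chosen with earlier results of these data known. The code was tested on simulated data.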

Additional observations from a re-analysis of the deposited data

Results flagged for a closer look

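In 94 checks of the named genes for a library far from the other 5 of its week, 12 stood out by Dixon's criterion, all of them high. Its level of about 1 in 20 holds for independent, normally distributed values. CPM of several genes in the same libraries need not meet either condition, so no chance rate is given for the 12. No cause was tested. Of these, 11 were at week 2. In week 2 2 mg/kg replicate 3, Mettl6 stood at 2.78 CPM (others 0.851 to 1.53), Ufsp2 at 5.08 CPM (others 2.41 to 3.22) and Maff at 12.9 CPM (others 3.80 to 5.71). In week 2 3 mg/kg replicate 1, Cuedc2 stood at 17.5 CPM (others 4.84 to 9.34), Mrps18a at 3.56 CPM (others 1.37 to 1.79) and Pf4 at 544 CPM (others 22.7 to 126). These are the 2 libraries that stood apart. In week 2 2 mg/kg replicate 2, Rsad2 stood at 17100 CPM (others 2690 to 5410), Tfrc at 175 CPM (others 28.5 to 80.2) and Mki67 at 90.9 CPM (others 13.3 to 39.8). Ifit2 stood at 3.70 CPM in week 2 2 mg/kg replicate 1 (others 0.597 to 1.31), and Cd14 at 324 CPM in week 2 3 mg/kg replicate 2 (others 67.8 to 159). At week 4, Acod1 stood at 99.6 CPM in 3 mg/kg replicate 1 (others 2.57 to 26.2).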

How the results depend on the processing

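Between the weeks, 0 genes were called in each of 12 fits that left out 1 library and in the other 21 fits except 2: DESeq2 called 1 (Hmgn5) and the fit with no filter on low counts called 1 (Zfp990, with no counts at week 2, adjusted p = 0.0272). Genes at an unadjusted p under 0.05 ranged from 224 to 1292, the highest with all 36 libraries in 1 fit, and from 334 to 882 when 1 library was left out. For the difference between doses DESeq2 called 12 and the fit with no filter 11, with Atf5, Chil3 and Lmna in both. For the difference between arms 0 genes were called in all of 24 and 12 fits.

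The sign of the log2 fold change between the weeks changed in at least 1 alternative for 9 of the 24 blood genes; the cause was not tested. Klf1 (-0.03) was 0.01 with upper-quartile scaling, with a mean of at least 1 CPM and with halved counts, 0.03 without ribosomal RNA and Alas2 in the library sizes and with all 36 libraries, 0.26 without libraries over 5% ribosomal RNA, 0.74 with the length index, 0.56, 0.43 and 0.47 with voom (REML weights, no weights, 1 variance per week), 0.98 at 2 mg/kg alone and 0.42 without the 2 libraries that stood apart. Gata1 (-0.16) was 0.36 with the length index, 0.15, 0.05 and 0.05 with voom, 0.38 at 2 mg/kg and 0.19 without the 2. Cd3e (-0.20) was 0.04 without high ribosomal RNA and with REML weights, 0.11 with the length index, 0.07 at 3 mg/kg and 0.23 without the 2. Trem1 (0.16) was 0.00 with the length index and -0.03 without the 2, Slc4a1 (-0.53) 0.19 and 0.28, and Pf4 (-1.30) 0.32 with REML weights and 0.21 without the 2. Dnmt3a (-0.25) was 0.13 in both other voom fits, Klrd1 (0.45) -0.47 at 2 mg/kg, and Il1b (-0.42) 0.12 at 3 mg/kg. Leaving out 1 library gave -0.35 to 0.67 for Klf1, -0.40 to 0.19 for Gata1, -0.39 to 0.17 for Cd3e and -0.51 to 0.18 for Dnmt3a.

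With a replicate block, 0 genes were called between the weeks, between doses and between arms (304, 289 and 262 at an unadjusted p under 0.05), with Gata1 at 0.07 and Klf1 at 0.44. Same-numbered libraries correlated at -0.60 to 0.23 in their deviations, and 1 of 6 correlated best with its own number, so the numbers were not taken as pairs. The fits without the 2 libraries that stood apart and the voom fits without weights or with 1 variance per week were chosen after seeing the data. Depth of 6.82 to 22.51 M counts left genes near 1 CPM with few counts.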
